A study of Mus musculus with 60 samples.

Results

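A set of 9 transcription factors that mark neural progenitors and successive steps of cortical neurogenesis was followed through the whole culture series. The set is Pax6, Eomes, Sox2, Neurog2, Neurod1, Neurod2, Neurod6, Hes1 and Hes5, chosen by name, and the expression table held all 9 of them among 39756 genes. All 9 also passed the filter used for testing, a mean of at least 1 TPM (a level per transcript length, as a share of all RNA in the library) over 48 libraries, which kept 14250 genes.

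In the embryonic cortex, radial glia divide at the ventricle under Sox2 and Pax6. Notch signalling between neighbouring cells turns on the repressors Hes1 and Hes5, which hold back proneural factors and keep cells undifferentiated. Cells that escape this block switch on the proneural factor Neurog2, pass through an intermediate progenitor state marked by Eomes (also called Tbr2), and then express the Neurod factors in order, with Neurod1 in newborn neurons and Neurod2 and Neurod6 in differentiating excitatory neurons. In glia, Sox2 stays on after neurogenesis has ended.

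The study asked how nuclear paxillin, an adaptor protein better known from focal adhesions, acts in developing neurons. The libraries were bulk RNA-seq of wild-type primary cortical neuron cultures of the C57BL/6J background, taken at day 3, 5 or 10 in vitro (DIV3, DIV5, DIV10), and of 2 libraries labelled E15. Each culture had received at DIV2 either a scrambled control siRNA (SC siRNA) or a pool of siRNAs against paxillin, with or without 20 ng/ml of brain-derived neurotrophic factor (BDNF), which gave 12 culture groups. SC siRNA without BDNF had 3 libraries at DIV3, 4 at DIV5 and 3 at DIV10, and paxillin siRNA without BDNF had 5, 6 and 4. With BDNF the SC siRNA groups had 3, 4 and 3 libraries and the paxillin siRNA groups 4, 5 and 2. No genetic change was shared by the groups, and the siRNA and the factor were the only treatments. The protocol in the labels gives E18 embryos for the cultures, while the paper calls them E15 mouse cultures, so whether E15 and the cultures differ in stage of dissection as well as in time in vitro is not settled by these sources. A number in each title tells the libraries of a group apart, and nothing in the labels says that equal numbers share an animal or a dish, so the p-values measure the spread between these libraries, which may in part be technical.

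Paxillin itself checked the labels only in part. At DIV5 without BDNF the 6 libraries given paxillin siRNA held 8.43 to 9.83 TPM of its mRNA (mean 9.17, SD 0.541), and the 4 given SC siRNA held 12.4 to 19.9 TPM (mean 15.5, SD 3.45), so that the groups did not overlap (limma adjusted p = 0.0186). The means for paxillin and SC siRNA were 9.01 (SD 1.47) and 10.2 TPM (SD 1.36) at DIV3, and 14.2 (SD 3.14) and 12.9 TPM (SD 6.02) at DIV10. In the cultures with BDNF they were 10.5 (SD 0.853) and 9.43 TPM (SD 2.45) at DIV3, 11.004 (SD 2.16) and 15.3 TPM (SD 4.04) at DIV5, and 11.7 (SD 1.09) and 12.4 TPM (SD 3.15) at DIV10. None of these 5 differences was called, so the siRNA groups at those times are compared by their labels.

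The cultures were not purely neuronal. Over the 46 culture libraries the summed level of 9 neuron markers ran from 685 to 4711 TPM and that of 9 astrocyte markers from 182 to 8404 TPM. At DIV10, 4 libraries stood apart with dividing cell markers (8 genes) summing to 12.2 TPM (paxillin siRNA 1), 14.1 TPM (paxillin siRNA 2), 18.8 TPM (SC siRNA 3) and 37.4 TPM (SC siRNA with BDNF 3), against 138 to 271 TPM in the other 8. The same 4 were low in astrocyte markers, at 883 to 1652 TPM against 4074 to 8404 TPM. In bulk RNA, fewer cells of a type and less RNA per cell cannot be told apart.

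The 9 genes are spread over 7 autosomes of GRCm38, the build the authors used. Neurod1 lies at chr2:79452521-79456751 (minus strand) and Pax6 at chr2:105668900-105697364 (plus). Sox2 lies at chr3:34650405-34652461 (plus) and Neurog2 at chr3:127633135-127635631 (plus). Hes5 lies at chr4:154960923-154962371 (plus), Neurod6 at chr6:55677822-55681263 (minus), Eomes at chr9:118478212-118486132 (plus), Neurod2 at chr11:98325415-98329648 (minus) and Hes1 at chr16:30064384-30067796 (plus). Sox2 sits inside the noncoding gene Sox2ot (chr3:34104270-34682619, plus), whose own level was 1.13 to 13.1 TPM while Sox2 was at 164 to 1758 TPM. The antisense gene Pax6os1 overlaps the start of Pax6 and did not exceed 0.0376 TPM in any library.

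Promoter windows of 300 bases (250 before and 50 after the start, RefSeq, GRCm38.p6) were at hand for 8 of the 9 genes, with 2 windows for Pax6 and no entry for Hes1. The window of Hes5 is shown because Hes5 carried the largest siRNA difference of the set, and TGGGAA, the core letters read by the Notch effector RBPJ, are in capitals on either strand. It spans chr4:154960673-154960972 and holds TGGGAA 2 times, starting at positions -226 and -82 from the start site.
Hes5: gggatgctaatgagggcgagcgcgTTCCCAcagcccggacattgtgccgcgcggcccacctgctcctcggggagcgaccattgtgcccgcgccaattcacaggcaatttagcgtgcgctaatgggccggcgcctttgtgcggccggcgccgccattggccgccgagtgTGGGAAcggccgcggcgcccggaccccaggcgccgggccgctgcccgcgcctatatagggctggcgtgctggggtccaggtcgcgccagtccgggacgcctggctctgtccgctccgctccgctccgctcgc
Searched on both strands, TGGGAA occurred in 25.6% of all 32851 promoter windows, and Hes5 was the only one of the 8 matched genes with it. The Hes5 window also held CATTGT, letters read by SOX factors, 2 times, and CATTGT occurred in 12.6% of all windows and in no other window of the set.

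The windows of the 3 Neurod genes are shown because these genes fell in level together over time in culture; capitals mark the E-box CANNTG, the letters bound by proneural and Neurod proteins. They span chr2:79456587-79456886, chr11:98329596-98329895 and chr6:55681214-55681513, all on the minus strand.
Neurod1: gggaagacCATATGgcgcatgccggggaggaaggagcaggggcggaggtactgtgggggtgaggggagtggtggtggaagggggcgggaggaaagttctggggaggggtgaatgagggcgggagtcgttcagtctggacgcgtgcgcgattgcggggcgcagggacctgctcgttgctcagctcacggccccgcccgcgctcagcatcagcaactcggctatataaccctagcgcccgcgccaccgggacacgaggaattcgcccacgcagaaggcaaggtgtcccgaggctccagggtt
Neurod2: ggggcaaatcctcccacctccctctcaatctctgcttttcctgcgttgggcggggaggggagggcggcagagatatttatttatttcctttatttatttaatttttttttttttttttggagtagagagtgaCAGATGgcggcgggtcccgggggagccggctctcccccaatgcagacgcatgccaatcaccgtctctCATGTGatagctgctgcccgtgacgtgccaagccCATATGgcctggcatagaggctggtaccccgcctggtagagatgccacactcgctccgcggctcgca
Neurod6: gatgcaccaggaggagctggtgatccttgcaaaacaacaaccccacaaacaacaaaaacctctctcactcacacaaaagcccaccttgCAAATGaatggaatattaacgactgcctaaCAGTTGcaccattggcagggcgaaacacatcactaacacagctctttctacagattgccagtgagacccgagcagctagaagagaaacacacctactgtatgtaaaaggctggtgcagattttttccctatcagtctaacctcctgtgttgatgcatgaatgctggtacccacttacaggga
CANNTG occurred 1 time in the Neurod1 window, 3 times in that of Neurod2 and 2 times in that of Neurod6. It was present for 6 of the 8 matched genes, and 72.3% of all windows held it, so its presence is common. CACNAG, the N-box of HES repressors, was present for 5 of the 8 genes and in 42.5% of all windows, and CACGNG, a further HES site that shares CACGTG with the E-box, for 2 of the 8 and in 27.5%.

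By mean level over the 48 libraries, Neurod6 was the most abundant at 1003 TPM, followed by Sox2 at 611 TPM and Neurod2 at 535 TPM. Hes5 averaged 96.6 TPM, Neurod1 61.2 TPM and Neurog2 38.2 TPM. Hes1, Eomes and Pax6 were the lowest, at 15.7, 14.1 and 13.99 TPM. Eomes varied most between groups: the mean TPM of its highest group was 294 times that of its lowest, against 26.9 times for Neurod6, 16.5 for Neurod1, 11.5 for Hes5, 11.3 for Neurog2, 8.66 for Neurod2, 4.49 for Sox2, 2.91 for Pax6 and 2.23 for Hes1. Highest and lowest were ranked by mean log2(TPM + 1). For Hes5 the group ranked first, DIV5 SC siRNA, averaged 166 TPM, and DIV5 paxillin siRNA with BDNF averaged 173 TPM.

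**Figure D1:**
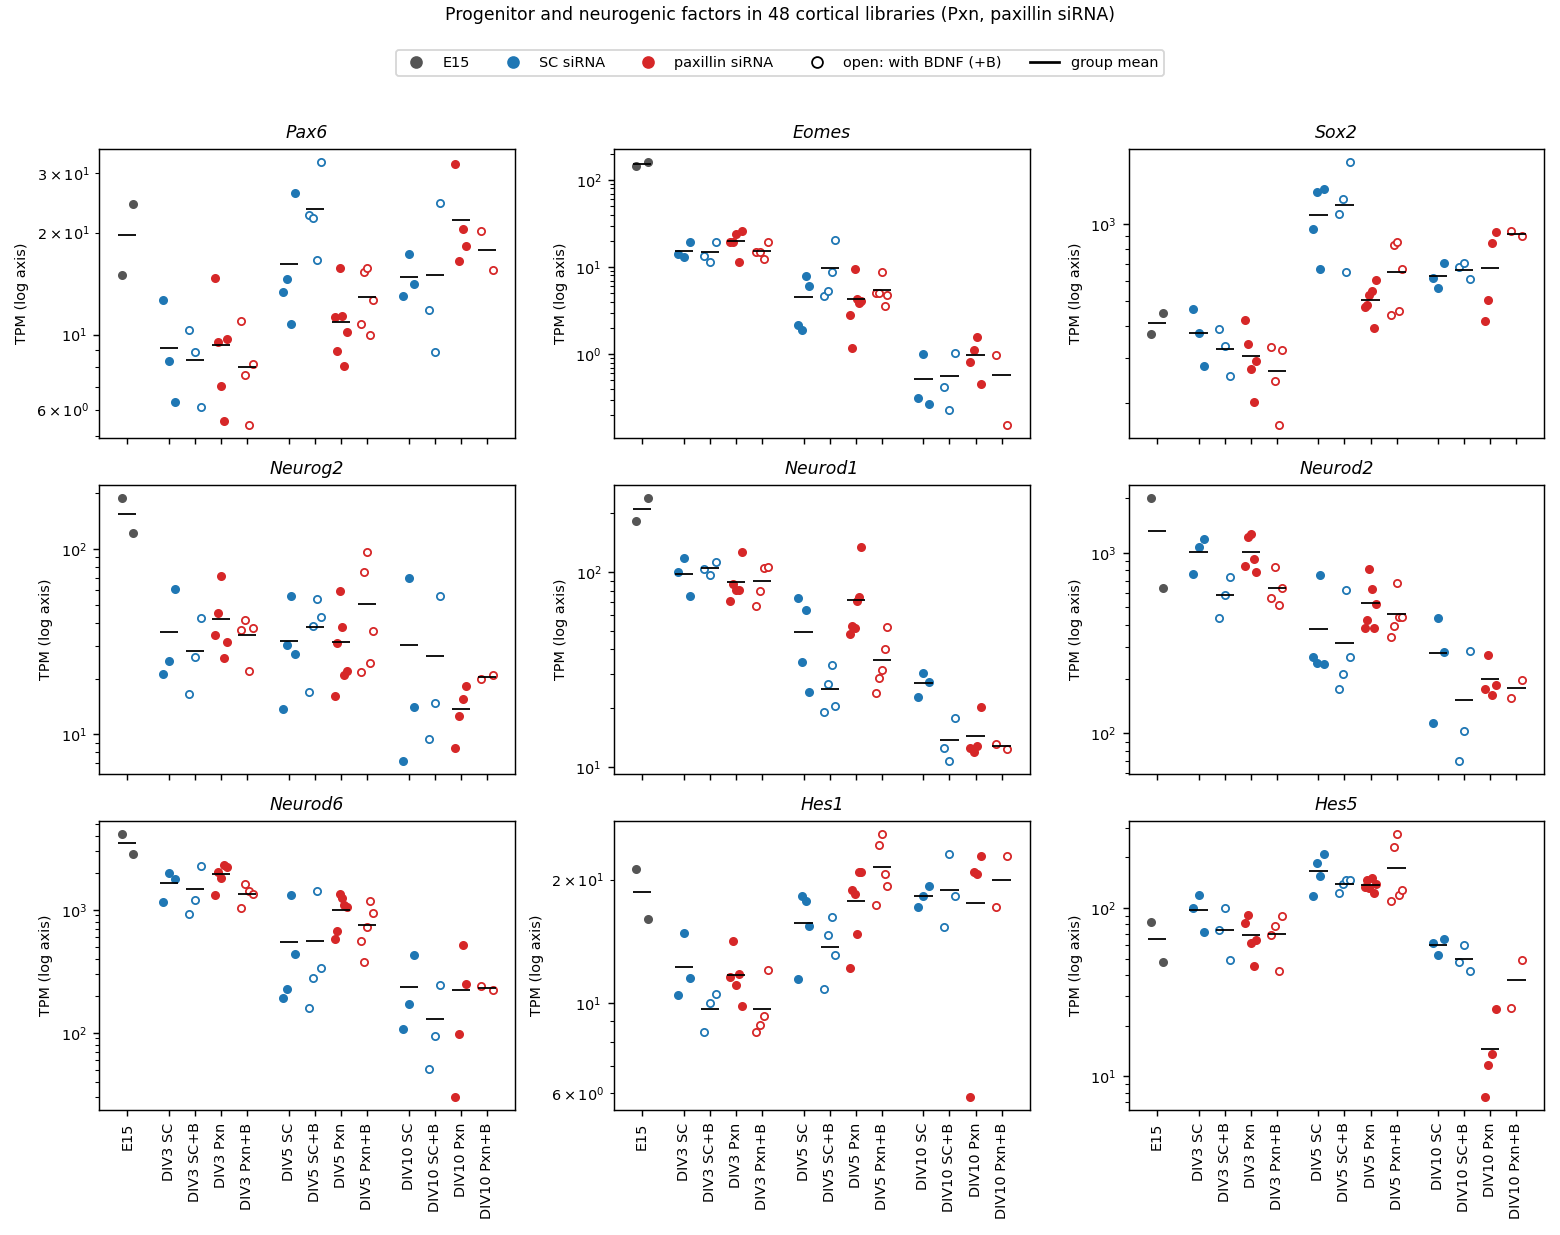
TPM of each of the 9 genes in every library (points, log axis) with the group mean (bar), for E15 and the 12 culture groups (blue, SC siRNA; red, paxillin siRNA; open, with BDNF). Eomes fell from 145 and 162 TPM at E15 to at most 1.56 TPM at DIV10, and Hes5 in the 4 DIV10 paxillin siRNA libraries (7.58 to 25.1 TPM) lay under all other libraries.

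Ordered by mean log2(TPM + 1), the 13 groups of a gene mostly ran into each other. E15 stood above the next group with no overlap for Eomes, Neurog2, Neurod1 and Neurod6. It had 2 libraries, and this ordering was not made for all genes. For Sox2 a break was found between DIV10 paxillin siRNA with BDNF (898 and 941 TPM) and the group after it, DIV10 SC siRNA with BDNF (608 to 708 TPM). For Hes5 breaks followed the lowest of the DIV5 groups and preceded DIV10 paxillin siRNA. The remaining neighbours in the order, including all 12 pairs for Pax6, Neurod2 and Hes1, overlapped.

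From E15 to DIV3 with SC siRNA, Eomes, Neurog2 and Neurod1 fell. Of the 9 genes 3 were called at an adjusted p under 0.05 (limma on log2(TPM + 1), Benjamini-Hochberg over 14250 genes), all of them lower, against 8.11% of all genes called. Eomes was 145 and 162 TPM at E15 and 13.1, 14.2 and 19.2 TPM at DIV3, a fall of 3.25 ± 0.48 on the log2(TPM + 1) scale (SE, adjusted p = 2.19e-05). Neurog2 was 121 and 188 TPM at E15 and 21.2, 25.0 and 60.9 TPM at DIV3 (log2 difference -2.21 ± 0.69, SE, adjusted p = 0.0421). Neurod1 was 182 and 239 TPM at E15 and 75.5, 99.7 and 117 TPM at DIV3 (log2 difference -1.11 ± 0.36, SE, adjusted p = 0.0487). In these and in Pax6, Neurod6 and Hes1 (6 of 9) the groups did not overlap, as held for 51.9% of all genes with 2 against 3 libraries. Eomes stayed called whichever of the 5 libraries was left out, whereas Neurod1 lost its call in every case (adjusted p = 0.0534 to 0.456) and Neurog2 in all but that of SC siRNA 3 of DIV3 (adjusted p = 0.106 to 0.235). Pax6 went from 19.6 ± 6.56 TPM (SD, n = 2) to 9.11 ± 3.23 TPM (SD, n = 3), with adjusted p = 0.0666, and Sox2, Hes1 and Hes5 had log2 differences of -0.16, -0.57 and 0.60 with adjusted p = 0.823, 0.237 and 0.326.

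Neurod2 and Neurod6, the later members of the Neurod series, were high from the start. Neurod2 was 2015 and 637 TPM in the E15 libraries, which differ more from each other than the E15 and DIV3 means do, and 763 to 1198 TPM at DIV3. Neurod6 was 4151 and 2867 TPM at E15 and 1162, 1788 and 2008 TPM at DIV3 (log2 difference -1.10 ± 0.80, SE, adjusted p = 0.408).

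From DIV3 to DIV5 with SC siRNA, Sox2 rose while Eomes and all 3 Neurod genes fell. In this step 5 of the 9 genes were called, against 9.47% of all genes (7.99% higher, 1.48% lower). Sox2 was 279, 374 and 466 TPM at DIV3 and 669, 960, 1340 and 1378 TPM at DIV5 (log2 difference 1.51 ± 0.30, SE, adjusted p = 0.0012). Every DIV5 library was above every DIV3 library. Eomes fell to 1.90 to 7.98 TPM (log2 difference -1.73, adjusted p = 0.00428), Neurod1 to 24.3 to 73.8 TPM (-1.09, adjusted p = 0.0172) and Neurod2 to 243 to 757 TPM (-1.59, adjusted p = 0.0157), with no overlap for these 3. With Sox2 this made 4 of the 9 genes, and 20.4% of all genes did not overlap in this step. Neurod6 fell from 1653 ± 439 TPM (SD, n = 3) to 543 ± 528 TPM (SD, n = 4), with SC siRNA 3 at 1319 TPM inside the DIV3 range (log2 difference -2.01, adjusted p = 0.0477). In a fit of these 2 groups alone none of the 9 was called. Leaving out single libraries left Sox2 and Eomes called each time, but only these 2 without SC siRNA 2 of DIV3 or SC siRNA 2 or 4 of DIV5.

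The astrocyte marker sum moved with Sox2 in the same libraries. At DIV5 SC siRNA 3 had both the lowest Sox2 (669 TPM) and the lowest astrocyte sum (1149 TPM), while SC siRNA 2 and 4 had Sox2 at 1340 and 1378 TPM with sums of 6639 and 7951 TPM. Across the 48 libraries Sox2 and the mean log2(TPM + 1) of the astrocyte markers, rather than their sum, correlated at r = 0.86. After group means were removed r was 0.75. The oligodendrocyte lineage list gave r = 0.82, and 0.79 after group means were removed. With group means removed, the interneuron, microglia, vascular, dividing cell and neuron lists gave 0.67, 0.66, 0.38, 0.37 and -0.10. These are descriptive values over libraries that share preparation, and the part of these markers in the Sox2 difference was not tested.

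From DIV5 to DIV10 with SC siRNA, Eomes fell further, Hes5 fell from its DIV5 level, and these were the only members called, against 24.9% of all genes (5.75% higher, 19.2% lower). Hes5 was 118, 154, 185 and 208 TPM at DIV5 and 52.8, 62.2 and 65.4 TPM at DIV10 (log2 difference -1.43 ± 0.31, SE, adjusted p = 0.00101). All 3 DIV10 libraries were under all 4 DIV5 libraries. Eomes ended at 0.266, 0.314 and 0.989 TPM (log2 difference -1.72 ± 0.40, SE, adjusted p = 0.00183). In a fit of these 2 groups alone neither was called (Hes5 adjusted p = 0.0629).

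Followed from DIV3 to DIV10, Eomes and the 3 Neurod genes fell in each of the 4 treatment arms. With SC siRNA 4 of the 9 genes were called, against 35.2% of all genes; with paxillin siRNA 8 were, against 54.3%; with SC siRNA and BDNF 6, against 40.3%; and with paxillin siRNA and BDNF 8, against 32.7%. In the paxillin siRNA with BDNF arm, which has 2 DIV10 libraries, the call of Neurod2 was lost without library 10 (adjusted p = 0.0689) and that of Neurod6 without library 10 or 11 of DIV10 (adjusted p = 0.0638 and 0.0775). The arms share no libraries here, but their group sizes differ (2 to 5 libraries), so their counts are not compared.

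Neurod6 had the largest fall of the Neurod genes in 3 of the arms by log2 difference. With paxillin siRNA it was 1330, 1813, 2042, 2247 and 2334 TPM at DIV3 and 30.2, 98.1, 251 and 515 TPM at DIV10 (log2 difference -3.76 ± 0.58, SE, adjusted p = 1.46e-06). The log2 difference was -3.01 with SC siRNA, -3.68 with SC siRNA and BDNF and -2.52 with paxillin siRNA and BDNF, where Neurod1 had the larger fall. The log2 differences of Neurod1 were -1.81, -2.55, -2.87 and -2.68 with SC siRNA, paxillin siRNA, SC siRNA with BDNF and paxillin siRNA with BDNF. Those of Neurod2 were -2.04, -2.34, -2.15 and -1.82 in the same order. Eomes had log2 differences of -3.45, -3.38, -3.35 and -3.42, ending at 0.155 to 1.56 TPM in the 12 DIV10 libraries, so that little Eomes mRNA was left at DIV10 in any arm. Neurog2 was called lower with paxillin siRNA alone (log2 difference -1.49, adjusted p = 0.013), a call lost without paxillin siRNA 1 of DIV10 (adjusted p = 0.0523), and its log2 differences were -0.68, -0.38 and -0.69 in the other arms.

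Sox2 and Pax6 went the other way. Sox2 rose by 1.11, 1.05 and 1.84 on the log2(TPM + 1) scale with paxillin siRNA, SC siRNA with BDNF and paxillin siRNA with BDNF (adjusted p = 0.000535, 0.00848 and 5.7e-05), and with SC siRNA its log2 difference of 0.78 had adjusted p = 0.055. The paxillin siRNA rise rested on libraries 10 and 11, without which it was 0.44 with adjusted p = 0.267. With SC siRNA and BDNF it was 0.88 with adjusted p = 0.0572 without library 3 of DIV3. Pax6 rose with paxillin siRNA, from 9.31 ± 3.49 TPM (SD, n = 5) to 21.8 ± 6.92 TPM (SD, n = 4), a log2 difference of 1.16 ± 0.27 (SE, adjusted p = 0.00035), and with paxillin siRNA and BDNF by 1.08 (adjusted p = 0.0138). With SC siRNA its log2 differences were 0.68 and 0.67 without and with BDNF (adjusted p = 0.0969 and 0.0933).

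The Notch effectors Hes1 and Hes5 parted. Hes1 rose in the BDNF arms, by 0.89 with SC siRNA and 0.98 with paxillin siRNA (adjusted p = 0.00825 and 0.00762). Each call rested on 1 DIV10 library, with adjusted p = 0.0559 without SC siRNA with BDNF 2 and 0.144 without paxillin siRNA with BDNF 11. Hes1 had log2 differences of 0.55 and 0.41 without BDNF (adjusted p = 0.11 and 0.117). Paxillin siRNA 1 of DIV10 decided the last value: it had 5.89 TPM of Hes1 against 20.7 to 22.8 TPM in the other 3, and without it the rise was 0.83 (adjusted p = 0.000107). Hes5 fell with paxillin siRNA, by 2.25 ± 0.27 (SE, adjusted p = 1.5e-08), and with paxillin siRNA and BDNF by 0.91 (adjusted p = 0.0445), while with SC siRNA its log2 differences were -0.66 and -0.52 (adjusted p = 0.119 and 0.214). The BDNF arm's call was lost without library 10 of DIV10 (-0.45, adjusted p = 0.528), and 4 of the 9 genes in that arm stayed called without it.

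**Figure D2:**
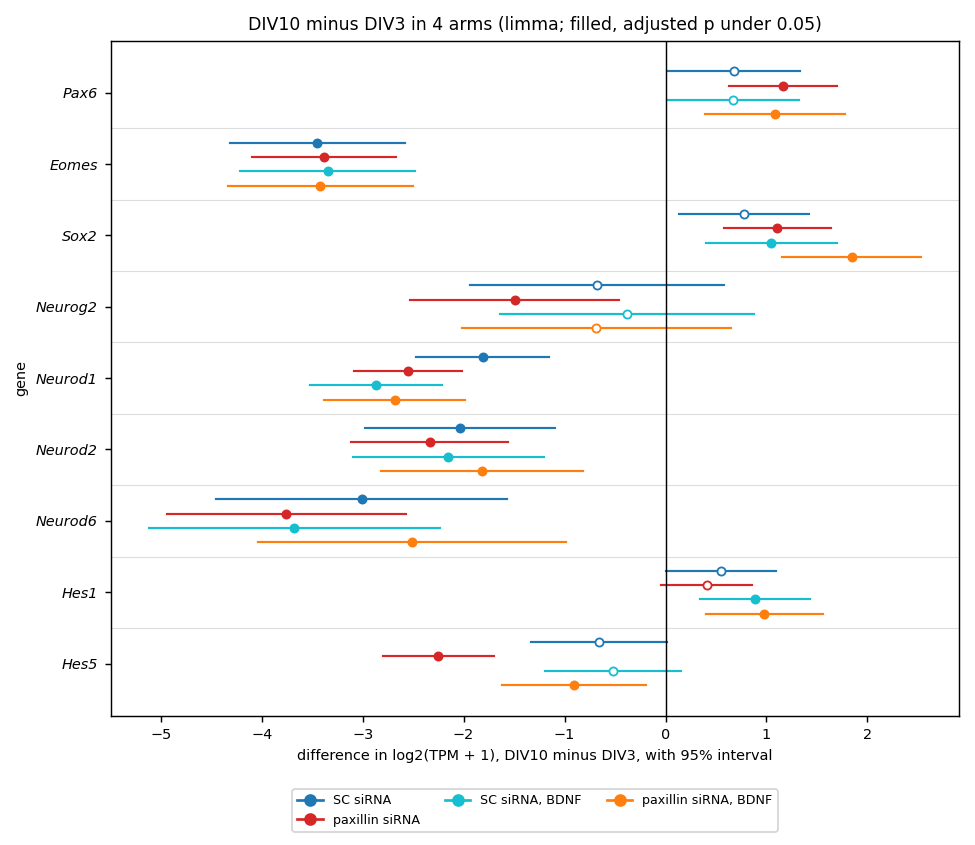
Difference in log2(TPM + 1) between DIV10 and DIV3 for each gene in the 4 treatment arms (points; lines, 95% interval of the limma fit; filled, adjusted p under 0.05). Eomes, Neurod1, Neurod2 and Neurod6 lie left of 0 in every arm, and the Hes5 point of paxillin siRNA (-2.25) lies left of the other 3 (-0.91 to -0.52).

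Whether these courses differed between arms was tested directly. For paxillin siRNA against SC siRNA none of the 9 genes was called, against 0.00702% of all genes, and 1 had an unadjusted p under 0.05: Hes5 fell by 1.59 ± 0.43 more with paxillin siRNA (limma SE, adjusted p = 0.527). Of all genes 9.1% had an unadjusted p under 0.05 there. Without the libraries numbered 10 and 11, all of which are paxillin siRNA, the Hes5 difference was -2.24 with adjusted p = 0.0047. That value rests on paxillin siRNA 1 and 2 at DIV10, both among the 4 libraries that stood apart, and without those 4 it was -1.22 with adjusted p = 0.531. For SC siRNA with against without BDNF none was called either, against 0.112% of all genes, and the 1 member with an unadjusted p under 0.05 was Neurod1 (log2 difference -1.05, limma adjusted p = 1.00). Of all genes 3.14% had an unadjusted p under 0.05 in this test.

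Paxillin siRNA was then compared with SC siRNA at each time. The comparisons share libraries with the time courses above and with the BDNF comparisons that follow, so agreement between them is not independent. At DIV3 no member was called: 0 of 9 passed without and 0 of 9 with BDNF (limma), against 0.00% of all genes in each, and none had an unadjusted p under 0.05. The 9 log2 differences lay between -0.51 (Hes5) and 0.32 (Eomes) without BDNF, and between -0.33 (Sox2) and 0.33 (Neurog2) with it, and all 18 pairs of groups overlapped. Without BDNF, all 3 pairs of libraries with the same number were higher with paxillin siRNA for Eomes (by 0.29 to 0.55), Neurog2 (by 0.23 to 0.83), Pax6, Neurod2 and Neurod6, and all 3 were lower for Sox2 and Hes5 (log2 differences of -0.40 to -0.22 for Hes5). Neurod1 and Hes1 were mixed. The share of all genes with 3 pairs of like sign was not computed, so no siRNA pattern is read from these signs. With the library number as a replicate block 0 of 9 were called by limma as well, at adjusted p = 0.997 or more.

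At DIV5 without BDNF, Sox2 was lower with paxillin siRNA. The 6 paxillin siRNA libraries had 392, 472, 481, 526, 549 and 607 TPM, and the 4 SC siRNA libraries 669, 960, 1340 and 1378 TPM. The groups did not overlap, and the means were 505 ± 73.97 and 1087 ± 337 TPM (SD, n = 6 and 4), a limma log2 difference of -1.06 ± 0.25 (SE, adjusted p = 0.0107). It was the 1 member called of 9, against 6.18% of all genes (0.8% higher, 5.38% lower), and 1 of 9 members did not overlap against 5.58% of all genes. The call rested on the high SC siRNA libraries: without SC siRNA 2 the difference was -0.94 with adjusted p = 0.0908, without SC siRNA 4 it was -0.93 with adjusted p = 0.0681, and in a fit of the 2 groups alone adjusted p = 0.0665. With the library number as a replicate block it was -1.04 with adjusted p = 0.00139.

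The other members at DIV5 were not called. Neurod6 was 998 ± 312 and 543 ± 528 TPM with paxillin and SC siRNA (SD, n = 6 and 4; log2 difference 1.26 ± 0.56, SE, limma adjusted p = 0.172), and Neurod1 was 71.9 ± 32.1 and 49.1 ± 23.4 TPM (SD, n = 6 and 4; log2 difference 0.58, limma adjusted p = 0.167). Neurod2 was 525 ± 169 and 377 ± 254 TPM (SD, n = 6 and 4), with limma adjusted p = 0.329, and became called only with the replicate block (log2 difference 0.75, adjusted p = 0.0351). Leaving out SC siRNA 3, which had the highest Neurod6 and Neurod2 of its group, made Neurod6 called as well (1.83, adjusted p = 0.0288). Over all libraries left out in turn the Neurod6 difference ranged from 0.91 to 1.83, with limma adjusted p up to 0.468. Hes5 was 137 ± 10.3 and 166 ± 39.1 TPM (SD, n = 6 and 4; log2 difference -0.24, limma adjusted p = 0.614).

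At DIV5 with BDNF none of the 9 was called by limma, against 0.596% of all genes. An unadjusted p under 0.05 was found for 3 of the 9, against 18.7% of all genes. Sox2 was 650.1 ± 196 and 1189 ± 457 TPM with paxillin and SC siRNA (SD, n = 5 and 4; log2 difference -0.84, limma adjusted p = 0.0952). Pax6 was 12.9 ± 2.61 and 23.4 ± 6.55 TPM (SD, n = 5 and 4; log2 difference -0.80, limma adjusted p = 0.113) and Hes1 21.5 ± 3.54 and 13.7 ± 2.31 TPM (SD, n = 5 and 4; log2 difference 0.61, limma adjusted p = 0.138). For Pax6 and Hes1 the groups did not overlap, as held for 6.79% of all genes. Without SC siRNA with BDNF 3 both Pax6 (-0.94, adjusted p = 0.034) and Sox2 (-1.10, adjusted p = 0.00979) were called. Over all libraries left out in turn, Pax6 reached -0.63 and Sox2 -0.62, with limma adjusted p up to 0.551 and 0.548.

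Astrocyte markers moved with the DIV5 comparison. Their sum was 919 to 1894 TPM (median 1288) in the 6 paxillin siRNA libraries and 1149 to 7951 TPM (median 5339) in the 4 SC siRNA libraries, with 2 of 9 markers, Aldh1l1 and Acsbg1, called lower and a list median of -0.87 against -0.08 over all genes. The oligodendrocyte lineage list had a median of -0.97 with 0 of 7 called. SC siRNA 3, whose astrocyte sum (1149 TPM) lay inside the paxillin siRNA range, had 669 TPM of Sox2, above the highest paxillin siRNA library (607 TPM). The part of these markers in the Sox2 difference was not tested.

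**Figure D3:**
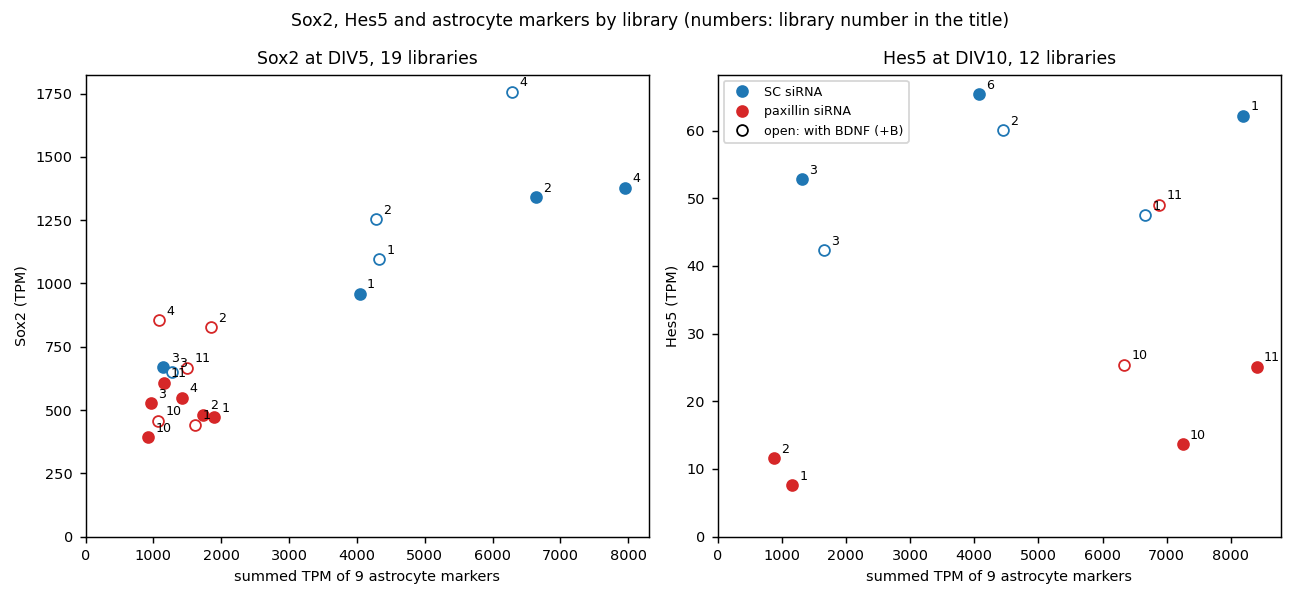
Sox2 at DIV5 (left, 19 libraries) and Hes5 at DIV10 (right, 12 libraries) in TPM against the summed TPM of 9 astrocyte markers; numbers are those in the titles (blue, SC siRNA; red, paxillin siRNA; open, with BDNF). The 6 DIV5 libraries with 960 TPM or more of Sox2 had astrocyte sums of 4040 TPM or more. Hes5 with paxillin siRNA alone was at or under 25.1 TPM at astrocyte sums from 883 to 8404 TPM. The part of cell type markers in either siRNA difference was not tested.

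At DIV10 without BDNF, Hes5 was lower with paxillin siRNA. Its 4 libraries had 7.58, 11.6, 13.6 and 25.1 TPM and the 3 SC siRNA libraries 52.8, 62.2 and 65.4 TPM. The means were 14.5 ± 7.53 and 60.1 ± 6.56 TPM (SD, n = 4 and 3), the groups did not overlap, as held for 8.88% of all genes, and the log2 difference was -2.09 ± 0.31 (SE, adjusted p = 0.00038). Hes5 was the 1 member called of 9, against 2.58% of all genes (0.4% higher, 2.18% lower). It was called without any single library (log2 difference -2.39 to -1.85), and in a fit of the 2 groups alone the same difference had adjusted p = 0.666.

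The marker sums of the same libraries are given beside Hes5. Paxillin siRNA 10 and 11 had astrocyte sums of 7250 and 8404 TPM and Hes5 at 13.6 and 25.1 TPM, while SC siRNA 1 had 8195 TPM of astrocyte markers and 62.2 TPM of Hes5. Among the libraries poor in dividing cell markers, paxillin siRNA 1 and 2 had 7.58 and 11.6 TPM of Hes5 and SC siRNA 3 had 52.8 TPM. Without the 4 DIV10 libraries that stood apart the log2 difference was -1.73 with adjusted p = 0.0378. Neuron, oligodendrocyte lineage and interneuron markers had list medians of -0.59, -1.08 and -1.80 in this comparison, with 1 of 9, 0 of 7 and 1 of 7 genes called lower (Syt1 and Gad1), and their part in the Hes5 difference was not tested. Interneuron marker sums were 48.1, 50.2, 412 and 1226 TPM with paxillin siRNA and 202, 1395 and 1450 TPM with SC siRNA.

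No other member was called at DIV10. Neurod1 was 11.9, 12.4, 12.8 and 20.4 TPM with paxillin siRNA and 22.9, 27.2 and 30.2 TPM with SC siRNA, which did not overlap, as held for 8.88% of all genes (log2 difference -0.88 ± 0.30, SE, adjusted p = 0.0815). It was called without paxillin siRNA 11 (adjusted p = 0.0251) or without both 10 and 11 (adjusted p = 0.00885). Over single libraries left out in turn its difference ranged from -1.05 to -0.79, with limma adjusted p up to 0.335. Sox2 was 676 ± 252 and 629 ± 72.8 TPM (SD, n = 4 and 3), a log2 difference of 0.03 with a 95% interval of -0.58 to 0.63. Within the paxillin siRNA group Sox2 was 418 and 507 TPM in libraries 1 and 2 and 843 and 934 TPM in libraries 10 and 11, as were the astrocyte sums low and high.

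With BDNF at DIV10, 0 of 9 were called by limma, against 0.0211% of all genes, and none had an unadjusted p under 0.05, against 7.18% of all genes. Only paxillin siRNA libraries 10 and 11 represent that group. Hes5 was 25.4 and 49.1 TPM with paxillin siRNA and 42.3, 47.5 and 60.0 TPM with SC siRNA (log2 difference -0.47 ± 0.37, SE, adjusted p = 0.846). The largest difference was that of Neurod6 (1.13 ± 0.80, SE, adjusted p = 0.826).

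**Figure D4:**
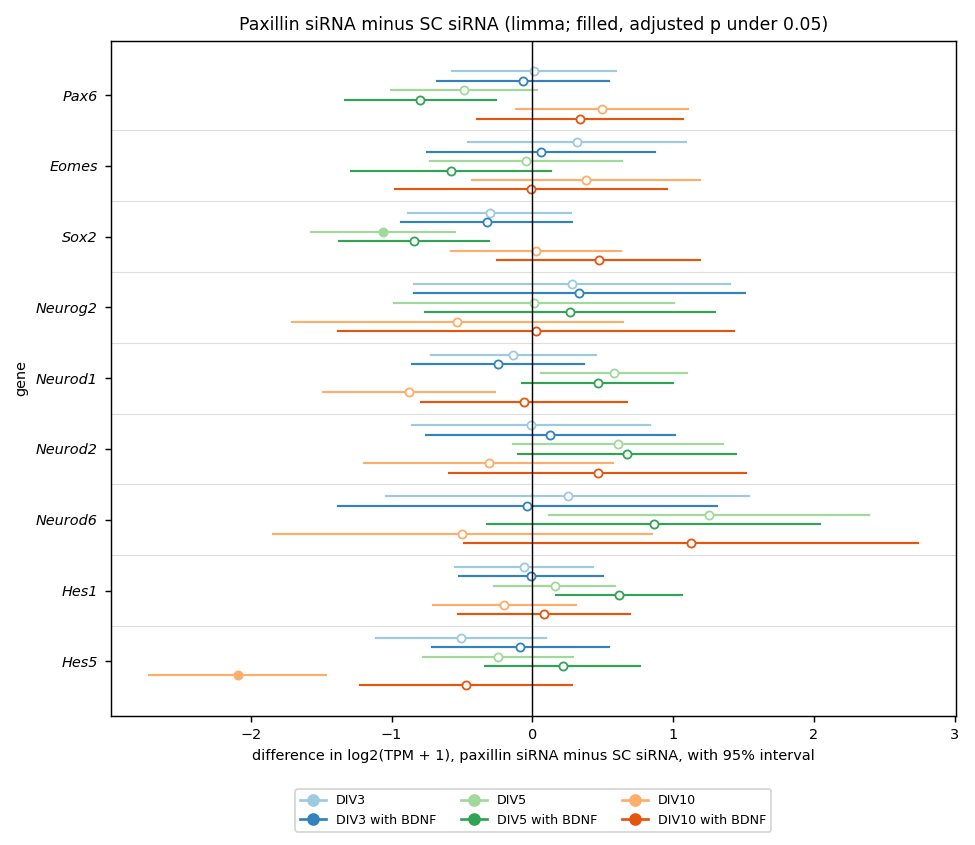
Difference in log2(TPM + 1) between paxillin siRNA and SC siRNA for each gene at 3 times without and with BDNF (points; lines, 95% interval of the limma fit; filled, adjusted p under 0.05). Only Sox2 at DIV5 (-1.06) and Hes5 at DIV10 (-2.09), both without BDNF, are filled.

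With BDNF none of the 9 genes was called by limma in any of 6 comparisons with the matching cultures without it. All genes were called at 1.21% (SC siRNA) and 2.14% (paxillin siRNA) at DIV3, at 0.0491% and 0.0140% at DIV5, and at 0.00% and 0.0140% at DIV10. The members with an unadjusted p under 0.05 numbered 0, 0, 2, 1, 1 and 1 in that order. Of all genes 10.3%, 12.4%, 8.9%, 6.88%, 2.47% and 18% had such a p. Among the members with such a p Neurod1 made up 3, Eomes and Hes5 the remaining 2.

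Neurod1, a factor that drives terminal differentiation of newborn neurons, had the smallest p of the set in 3 of the 6 comparisons. At DIV3 it was 104 ± 8.06 TPM (SD, n = 3) with BDNF and 97.6 ± 21.1 TPM (SD, n = 3) without, both with SC siRNA. At DIV5 with SC siRNA it was 19.1, 20.6, 26.7 and 33.4 TPM with BDNF and 24.3, 34.7, 63.5 and 73.8 TPM without (log2 difference -0.85 ± 0.28, SE, limma adjusted p = 0.304). Over all libraries left out in turn the difference ranged from -1.13 (without SC siRNA 4, limma adjusted p = 0.0395) to -0.61. All 4 pairs of libraries with the same number were lower with BDNF. Such pair counts were not made for all genes. At DIV5 with paxillin siRNA all 5 pairs were lower, by 0.87 to 1.33 on the log2(TPM + 1) scale, and the group means were 35.3 ± 11.3 and 71.9 ± 32.1 TPM (SD, n = 5 and 6). There the log2 difference was -0.96 ± 0.24 (SE, adjusted p = 0.135), and -0.96 with adjusted p = 0.0137 when the number was a replicate block, so that the call depends on the pairing. At DIV10 with SC siRNA Neurod1 was 10.8, 12.5 and 17.7 TPM with BDNF and 22.9, 27.2 and 30.2 TPM without, with no overlap (4.53% of all genes did not overlap; log2 difference -0.94, limma adjusted p = 1.00). At DIV10 with paxillin siRNA it was 12.4 and 13.2 TPM with BDNF and 11.9 to 20.4 TPM without.

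Hes5 at DIV10 with paxillin siRNA was higher in both libraries with BDNF than in any of the 4 without. In library 10 it was 13.6 TPM without and 25.4 TPM with BDNF, and in library 11 it was 25.1 and 49.1 TPM (log2 difference 1.35 ± 0.35, SE, limma adjusted p = 0.218). The difference was called without paxillin siRNA 10 (1.36, adjusted p = 0.0346) or 11 (1.64, adjusted p = 0.0121), and the groups did not overlap in 18.1% of all genes. Over all libraries left out in turn the Hes5 difference ranged from 0.89 to 1.81. Both ends are fits that left 1 library with BDNF. Marker lists moved in the same comparison, with medians of 2.55 for interneuron, 2.05 for oligodendrocyte lineage, 1.88 for dividing cell and 1.10 for astrocyte markers against 0.09 over all genes, although 0 genes of these lists were called by limma. Paxillin siRNA 1 and 2, which stood apart, are 2 of the 4 libraries without BDNF, and without the libraries that stood apart the Hes5 difference was 0.90 with adjusted p = 1.00. The part of these markers in it was not tested. With SC siRNA at DIV10 the log2 difference was -0.27 (adjusted p = 1.00). Neurod2 at DIV3 was 585 ± 148 TPM (SD, n = 3) with BDNF against 1012 ± 224 TPM (SD, n = 3) with SC siRNA, without overlap as in 20.6% of all genes, and 636 ± 141 against 1008 ± 226 TPM (SD, n = 4 and 5) with paxillin siRNA (limma adjusted p = 0.611 and 0.509).

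**Figure D5:**
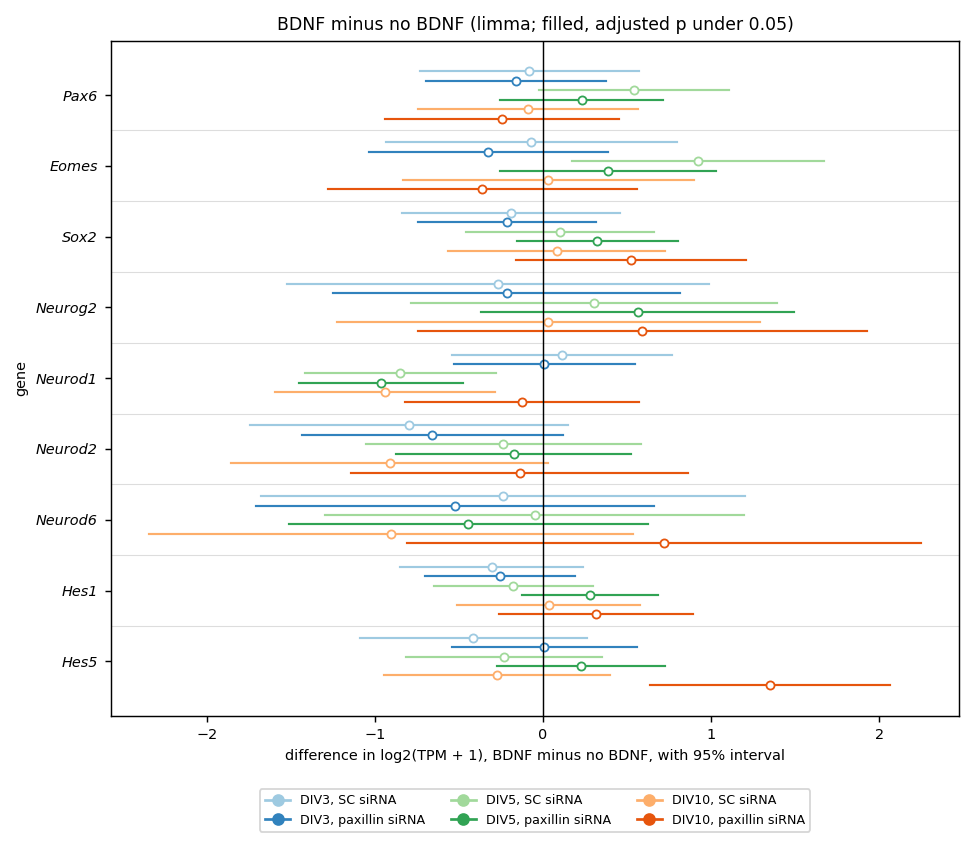
Difference in log2(TPM + 1) between cultures with and without BDNF for each gene at 3 times under SC or paxillin siRNA (points; lines, 95% interval of the limma fit; open, adjusted p of 0.05 or more). No point is filled; Neurod1 at DIV5 lies at -0.85 and -0.96, and Hes5 at DIV10 with paxillin siRNA at 1.35.

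Other genes of the same pathways were counted beside the members. From E15 to DIV3, of 20 Notch pathway genes 1 was called higher and 3 lower (list median -0.18, all genes -0.01). Of all genes 4.63% were called higher and 3.48% lower. The ligand gene Jag2 rose from 42.7 ± 9.08 TPM (SD, n = 2) to 81.9 ± 7.44 TPM (SD, n = 3), and the target genes Heyl and Hey2 fell (log2 differences -1.68 and -1.30, adjusted p = 0.00176 and 0.0105). Of 14 radial glia genes tested (15 listed) only Emx2 was called (log2 difference -1.10, adjusted p = 0.0423), and of 14 intermediate progenitor and newborn neuron genes 0 were (list median -0.49). The endothelial gene Cldn5 went from 383 ± 3.05 TPM (SD, n = 2) to 0.542 ± 0.273 TPM (SD, n = 3), and Kcnj8, a gene of pericytes, also fell (log2 difference -3.18).

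From DIV3 to DIV10 with SC siRNA, 8 of 14 intermediate progenitor and newborn neuron genes were called lower and 0 higher (list median -0.88, all genes -0.04). Of all genes 16.1% were called higher and 19.1% lower. Sox11, a factor of immature neurons, fell from 2008 ± 172 TPM (SD, n = 3) to 336 ± 240 TPM (SD, n = 3), and the progenitor factor Insm1 from 393 ± 79.03 to 62.1 ± 34.5 TPM (SD, n = 3 each). Of 20 Notch pathway genes 3 were higher and 4 lower, close to the shares of all genes. Hey1 and the receptor gene Notch2 rose (log2 differences 1.24 and 1.11), and the ligand gene Dll1 and Heyl fell (-0.93 and -0.90). Of the radial glia genes Hopx was higher (1.03), and Tnc and Lhx2 were lower (-2.09 and -1.65). Dividing cell markers fell in 6 of 8 genes, astrocyte markers rose in 6 of 9, oligodendrocyte lineage markers in 4 of 7 and microglia markers in 4 of 5 over the same interval.

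In the siRNA comparisons few pathway genes were called. Without BDNF, 5.38% of all genes were called lower at DIV5 and 2.18% at DIV10. At DIV5, 3 of 20 Notch pathway genes were lower (list median -0.43), among them the receptor genes Notch2 and Notch1, at 6.56 ± 1.19 and 47.7 ± 9.53 TPM (SD, n = 6) with paxillin siRNA against 15.2 ± 6.34 and 82.5 ± 16.3 TPM (SD, n = 4). Of the radial glia genes Sox3 and Sox9 were lower (log2 differences -1.56 and -1.13, adjusted p = 0.0444 and 0.0188) and none higher. At DIV10, where Hes5 was called, 1 of 20 Notch pathway genes was lower, Jag2 (log2 difference -0.81, adjusted p = 0.0499), and 0 of 14 in both other lists were called.

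The genes whose log2(TPM + 1) most resembled that of each member over the 48 libraries were listed by Pearson's r, as a description over libraries that share time points and preparation. For Hes5 they were Nrarp (r = 0.89), Dll1 (0.86) and Vav2 (0.81), the first a feedback inhibitor and the second a ligand of the Notch pathway. For Sox2 they were Sall1, Rftn2 and Kank1 (0.93, 0.93 and 0.92), and for Neurod6 Znrf2, Khdrbs3 and Bach2 (0.96, 0.94 and 0.94). For Neurod2 they were Mn1, Nck2 and Aff3 (0.95, 0.95 and 0.94), for Neurod1 Amer3, Dyrk3 and Csrnp3 (0.92, 0.91 and 0.91), and for Eomes Ilf2, Zbtb12 and Gpn1 (0.93, 0.91 and 0.91). For Pax6 they were Hbp1, Eci2 and Gnai2 (0.90, 0.90 and 0.87), for Neurog2 Ddah2, Tfap2c and Ccdc51 (0.80, 0.79 and 0.78), and for Hes1 Gatb, Cog7 and 1700003M07Rik (0.75, 0.74 and 0.72).

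Among the members themselves, the correlation after group means were removed was strongest for Neurog2 and Neurod2 (r = 0.77, 48 libraries), followed by Sox2 and Hes5 (0.65) and Neurod2 and Neurod6 (0.59). Library number 3 was highest in both Neurog2 and Neurod2 in all 8 of its groups, and r without it was not computed. Hes1 and Hes5 stood at 0.57 within groups but at 0.19 over all libraries. Eomes and Neurod1 stood at 0.79 over all libraries and at 0.01 within groups, so their likeness lay between groups.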

How the data were processed

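Bulk RNA-seq of 48 cortical libraries in 13 groups was analysed. The libraries were made with an mRNA capture kit, and the authors aligned reads to GRCm38.p6 with STAR 2.7.10 and estimated expression with RSEM 1.3.3, per the labels' processing notes. The deposited table holds TPM per gene symbol, scaled to the same sum in each library, with 20878 to 23585 genes above 0. TPM keeps no read depth, so no counting interval is given, and a level is a share of all RNA in the library. Groups were taken from the titles.

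Genes averaging 1 TPM or more were fitted on log2(TPM + 1) with limma 3.58.1 (R 4.3.3; lmFit, contrasts.fit and eBayes with a trend), with 1 coefficient per group over all 48 libraries. P-values were adjusted by Benjamini-Hochberg over 14250 genes, with a threshold of 0.05, in 21 comparisons (19 between groups, 2 of differences). The fit was tested on simulated data. Fold changes on this scale understate those of low genes. The named genes were the 9 members, Pxn, up to 2 called genes a direction of each list in the comparisons named, and the 3 genes most like each member. The members and lists were chosen with earlier results of these data known.

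Library numbers were taken to pair samples where at least 3 numbers were shared and same-numbered libraries deviated together from their group means at r above 0.1 in every pair. This held in 7 of 18 comparisons (r = 0.24 to 0.81 in them), and comes from the data, not from the labels. Alternatives were a pseudocount of 0.1 TPM, no filter, median ratio rescaling, the compared groups alone, the replicate block, leaving out each library, and leaving out the libraries numbered 10 and 11. The fit without 4 DIV10 libraries low in dividing cell markers was added after seeing the data. The hippocampal transcript counts of the series were not used here. Figures and tables were made with Python 3.11.15, numpy 2.4.6, pandas 2.3.3 and matplotlib 3.10.9.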

Additional observations from a re-analysis of the deposited data

Results flagged for a closer look

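Within groups of 4 to 6 libraries, 63 sets of values of the 9 genes were screened for a library far from the rest, of which chance gives about 1 in 20, and 3 were marked. Neurod2 in SC siRNA 3 of DIV5 was 757 TPM against 243 to 264 TPM in the other 3, with the gap taking up 0.927 of the range. Hes1 in paxillin siRNA 1 of DIV10 was 5.89 TPM against 20.7 to 22.8 TPM (0.924 of the range). Neurod1 in paxillin siRNA 11 of DIV10 was 20.4 TPM against 11.9 to 12.8 TPM (0.871 of the range). These 3 libraries carry numbers that recurred at the same end for the same gene in other groups, as given below. The paxillin and SC siRNA groups did not overlap for Sox2, with opposite signs, at DIV5 without BDNF (log2 difference -1.06) and at DIV10 with BDNF (0.47, limma adjusted p = 0.839). The second was not called and compared 2 with 3 libraries. Of all genes 5.58% did not overlap in the first comparison and 24.5% in the second. The difference between these 2 was not tested.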

How the results depend on the processing

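The share of all genes called in each alternative fit is not given here. A changed count of members therefore cannot be told apart from a change over all genes. Of the 9 genes, the number called changed as follows. From E15 to DIV3 it was 3, but 1 with no filter, 5 with the replicate block, and 1 to 2 when a library was left out. From DIV3 to DIV5 with SC siRNA it was 5, but 0 in a fit of the compared groups alone and 2 to 6 when a library was left out. From DIV5 to DIV10 it was 2, but 0 in the groups alone and 4 with the block (2 to 3 by library left out), and from DIV3 to DIV10 with SC siRNA 4, but 7 without the 4 DIV10 libraries low in dividing cell markers. With paxillin siRNA and BDNF it was 8, and 4 to 8 by library left out. For paxillin siRNA at DIV5 it was 1, but 0 in the groups alone, 2 with the block and 0 to 2 by library; with BDNF 0, but 3 with the block and 0 to 2 by library. At DIV10 it was 1, but 0 in the groups alone, 2 with the block, 2 without the libraries numbered 10 and 11, and 1 to 2 by library. For BDNF it was 0, but 0 to 1 by library at DIV5 with SC siRNA, 1 with the block at DIV5 with paxillin siRNA, and 0 to 1 by library at DIV10 with paxillin siRNA. For the paxillin siRNA time course against SC siRNA it was 0, but 1 without libraries 10 and 11. The cause was not tested where more than the number of genes or libraries changed. Where the numbers pair the samples, the block changed no other call than Neurod2 and Neurod1 at DIV5, given above; elsewhere the samples share only a number.

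An uncalled difference was counted as reversed if it changed sign and moved by more than 1 SE, and none of the 23 that did passed the threshold. Leaving out 1 library in turn, Neurod2 ranged from -1.02 to 0.64 for E15 to DIV3 (above 0 without E15 1), and from DIV5 to DIV10 Neurog2 ranged from -1.39 to 0.15 and Neurod2 from -0.87 to 0.089 (above 0 without DIV10 SC siRNA 1). For paxillin siRNA at DIV10 the ranges were -1.20 to 0.35 for Neurog2 (above 0 without SC siRNA 3), -1.12 to 0.23 for Neurod6 and -0.37 to 0.23 for Hes1 (both above 0 without paxillin siRNA 1). For BDNF at DIV10 they were -0.68 to 0.92 for Neurog2 with SC siRNA and -0.11 to 0.51 for Hes1 with paxillin siRNA. For the difference of time courses they were -1.48 to 0.068 for Neurog2 and -0.31 to 0.29 for Hes1. Without libraries 10 and 11, Hes1 from DIV3 to DIV10 was -0.10, Sox2 for paxillin siRNA at DIV10 was -0.44 and Sox2 for the difference of time courses was -0.34. Without the 4 DIV10 libraries, Neurog2, Neurod6 and Hes1 were 0.68, 0.74 and 0.25 for paxillin siRNA, Neurod6 and Hes1 were -0.63 and -0.13 for BDNF with paxillin siRNA, and Neurog2, Neurod6 and Hes1 were 0.40, 0.49 and 0.31 for the difference of time courses. With the block Neurod2 for paxillin siRNA at DIV10 was 0.34. Of the other alternatives for single genes 2606 were counted as unchanged, 35 became called and 54 lost the call. Those counted as unchanged include uncalled differences that changed sign by no more than 1 SE. They also include the rescaled group levels of the members, which have no direction or call. Median ratio rescaling moved the median of all genes by over 0.1 in 3 comparisons (DIV3 to DIV5 with SC siRNA, 0.11 to -0.02; DIV5 to DIV10, -0.16 to -0.02; DIV3 to DIV10 with paxillin siRNA, -0.11 to 0.00). The depth is not given by TPM, and groups of 2 to 6 libraries limit the precision.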

Other observations

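Library number 3 stood out for Neurog2 and Neurod2. It was present in 8 groups, and in all 8 it had the highest Neurog2 and the highest Neurod2 of its group. For Neurog2 it was 60.9, 42.3 and 71.7 TPM in the DIV3 groups with SC siRNA, SC siRNA with BDNF and paxillin siRNA, 56.0, 53.6 and 59.5 TPM in the same groups at DIV5, and 69.3 and 55.6 TPM in the DIV10 groups with SC siRNA without and with BDNF. Its Neurog2 thus stayed at like levels from DIV3 to DIV10, while SC siRNA 1 went from 21.2 to 7.23 TPM. It also had the highest Eomes in 6 of the 8 groups and the lowest Sox2 in 6. It was highest for Neurod6 in 5 groups, and for Neurod1 highest in 4 and lowest in 1. Of all 14250 genes, 3.02% were highest in library 3 in all 8 groups. Other numbers recurred as well, counted in groups of more than 2 libraries. Number 1 was lowest in 10 of 11 groups for Hes1 and for Neurod6, and in 9 of 11 for Neurog2. Number 11 was highest for Neurod1 in 5 of 5 groups. The labels do not say what the number stands for, and the cause was not tested.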
